A study of Homo sapiens with 8 samples.

Results

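Of the 631 tRNA loci in the deposited count table, 24 carry a name that begins with nm-, and these 24 loci are described here. They were found by the prefix alone, without regard to amino acid, anticodon or counts. By name, 23 are tyrosine tRNA loci and 1 is a serine locus. The libraries came from HEK293T, a human embryonic kidney cell line. In the ADAT2 knockdown line, Cas9 and a guide against ADAT2 produced a stable heterozygous line labelled with 50% ADAT2 expression. In the control line, cells received a Cas9 plasmid with no guide, and ADAT2 expression is labelled as 100%. ADAT2 is a subunit of the enzyme that turns adenosine at the first anticodon position of some tRNAs into inosine. Each line has 2 libraries, numbered 3 and 4, made from total RNA with a small RNA kit after selection of library fragments of 160 to 220 base pairs. One edited line is set against 1 control line, so what ADAT2 does and how the lines differ otherwise cannot be told apart.

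Human mitochondria carry their own genome, which encodes a full set of tRNAs for translation inside the organelle. Pieces of mitochondrial DNA have been copied into the nuclear chromosomes during evolution, and such copies contain the mitochondrial tRNA genes together with remnants of the protein genes beside them. Cytosolic tyrosine tRNA, in contrast, is transcribed in the nucleus by RNA polymerase III from genes that carry an intron. The sources used here do not say what the nm- prefix stands for. The position of the loci beside mitochondrial pseudogenes was therefore examined first.

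The total counts were 1211292 and 878791 in knockdown libraries 4 and 3, and 1069932 and 698143 in control libraries 4 and 3. A locus with no count could hold up to 3 counts, which is 2.48 and 3.41 CPM (each count divided by its library's total, then scaled alike in every library) in knockdown libraries 4 and 3 and 2.80 and 4.30 CPM in control libraries 4 and 3. The table covers tRNA loci and gives no level for ADAT2 itself. Separate cultures are not stated for the libraries, and p-values then measure only how far these libraries differ, possibly for technical reasons. In a bulk library, fewer molecules per cell and fewer contributing cells cannot be told apart.

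Most nm loci lay beside pseudogenes of the genes that flank the mitochondrial tyrosine tRNA gene. In the mitochondrial genome, MT-TY is 66 bases long (chrM:5826-5891, minus strand, GENCODE v29) and lies between MT-ND2, which encodes a subunit of respiratory complex I, and MT-CO1, which encodes a subunit of cytochrome c oxidase. The gap between MT-TY and MT-CO1 is 12 bases, and 314 bases separate MT-TY from MT-ND2. Within 1000 bases of the nm loci, GENCODE v29 places an MT-CO1 pseudogene beside 19 loci and an MT-ND2 pseudogene beside 13, with both beside 12. At least 1 of these pseudogenes stood beside 20 of the 24 loci, against 11 of 17 loci with the similar prefix nmt- and 0 of 590 loci without a prefix.

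The distances and strands were close to those in the mitochondrial genome. The MT-CO1 pseudogene stood on the opposite strand at all 19 loci, at a median gap of 14 bases (lowest 1, highest 52), and on the 5′ side of the tRNA locus at 18 of them. All 13 MT-ND2 pseudogenes stood on the opposite strand too, on the 3′ side, at gaps of 298 to 343 bases (median 317). The exception in side was the serine locus, nm-tRNA-SerTGA-AGA-chr11-7, which had MTCO1P15 on its 3′ side at a gap of 1 base. In the mitochondrial genome, the serine tRNA gene MT-TS1 follows the other end of MT-CO1 at a gap of 0 bases. The tyrosine locus nm-tRNA-Tyr-ATA-chr11-8 lies at the opposite end of the same MTCO1P15, 14 bases away. By annotated position, these loci flank MTCO1P15 as MT-TS1 and MT-TY flank MT-CO1. Their sequences were not compared with those genes.

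**Figure D1:**
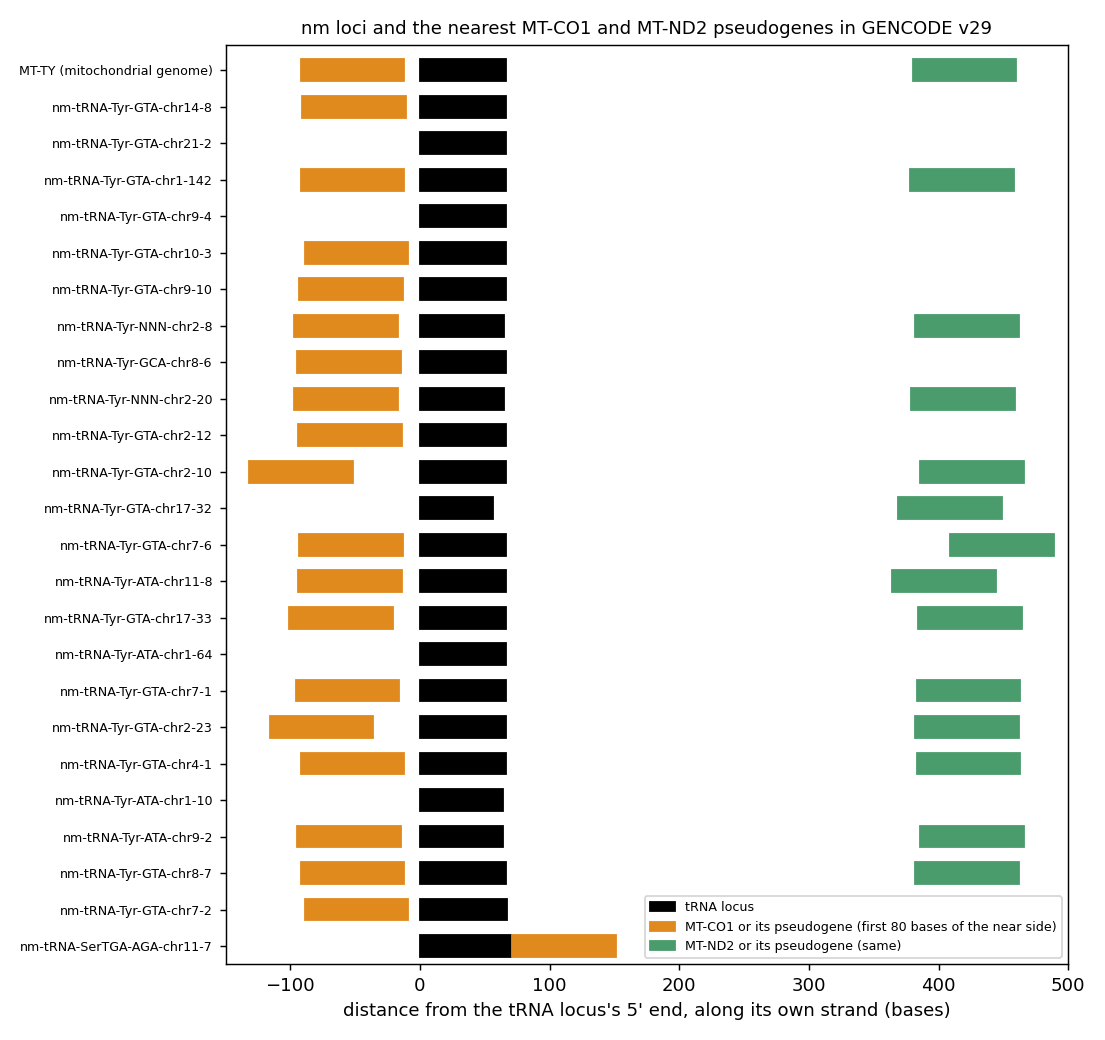
Position of the annotated MT-CO1 pseudogene (orange) and MT-ND2 pseudogene (green) nearest each nm locus (black), in bases from the locus's 5′ end along its own strand, with MT-TY in the top row. A fixed length of each neighbour is drawn from its near side. The orange blocks end 1 to 52 bases from the locus and the green blocks start 298 to 343 bases beyond it, beside 12 and 314 bases at MT-TY.

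For 4 loci GENCODE showed no mitochondrial pseudogene within 1000 bases, namely nm-tRNA-Tyr-GTA-chr21-2, nm-tRNA-Tyr-GTA-chr9-4, nm-tRNA-Tyr-ATA-chr1-64 and nm-tRNA-Tyr-ATA-chr1-10. For nm-tRNA-Tyr-ATA-chr1-64, RefSeq (GRCh38.p14) lists MTCO1P38 at a gap of 12 bases and MTND2P27 at 318 bases. For the other 3, RefSeq listed neither pseudogene family within this distance. Of the 24 loci, 15 lay between annotated genes and 9 in introns, with none overlapping an exon.

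The sequence of the mitochondrial tyrosine tRNA gene is shown because it is the mitochondrial gene in this position, in the reference sequence of GENCODE v29, with the anticodon at bases 30 to 32 in capitals.
MT-TY: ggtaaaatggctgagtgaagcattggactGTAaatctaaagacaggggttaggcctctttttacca
The locus sequences were not compared with it, since a nuclear genome sequence was not used here.

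The nm loci were short and intronless. In the deposited columns 17 of the 24 were 66 bases wide, the length of MT-TY, and the full range was 56 to 70 bases. None had the intron flag, which was rare in the table. It was set for 34 of the 590 loci without a prefix and 0 of the 17 nmt loci. Among the 16 Tyr-GTA loci without the prefix, 13 had the intron flag, and the median width was 89 bases. By the amino acid and anticodon columns, 16 nm loci were Tyr-GTA, 4 Tyr-ATA, 1 Ser-AGA, 1 Cys-GCA and 2 undetermined. Name and columns differed for 4 loci, and the columns were used. They were the serine locus, nm-tRNA-Tyr-GCA-chr8-6, whose column amino acid is cysteine, and the undetermined nm-tRNA-Tyr-NNN-chr2-8 and nm-tRNA-Tyr-NNN-chr2-20.

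The loci were spread over 11 chromosomes, with 5 on chromosome 2, 3 each on chromosomes 1, 7 and 9, 2 each on chromosomes 8, 11 and 17, and 1 each on chromosomes 4, 10, 14 and 21. Chromosome 6, which holds 183 of the 631 loci of the table, had 0. Of the 24 loci, 16 were on the plus strand and 8 on the minus strand.

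The deposited Score, a number per locus whose origin is not stated, was low for every nm locus. It ran from 7.42 to 39.33 with a median of 27.62, against a median of 83 for the Tyr-GTA loci without the prefix and 72.4 for all 590 loci without a prefix. Among those 590, 526 scored above the highest nm locus. The 17 nmt loci had a median Score of 30.33. The highest nm Score, 39.33, belonged to nm-tRNA-Tyr-GTA-chr7-6 (chr7:141802073-141802138), which had no count in any library. The lowest, 7.42, belonged to nm-tRNA-Tyr-GTA-chr17-32 (chr17:22527251-22527306), the shortest locus, which had 1 count in knockdown library 4 and 0 in the other libraries.

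Scores of nm loci with and without counts overlapped. The 12 loci with at least 1 count had a median Score of 27.39, and the 12 without had 27.96. The locus with the most counts, nm-tRNA-Tyr-GTA-chr14-8, had a Score of 24.18, which is rank 19 of 24. The 64 loci without a prefix that scored no higher than the nm loci reached at most 1047 CPM on average over the 4 libraries, below each of the 3 most abundant nm loci. These 3 ranked 11, 59 and 60 among the 631 loci by mean CPM. The means rest mainly on the libraries numbered 4. nm-tRNA-Tyr-GTA-chr1-142 and nm-tRNA-Tyr-GTA-chr21-2 stood at 751 to 938 CPM in the libraries numbered 3, against 7416 to 8846 CPM in those numbered 4.

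**Figure D2:**
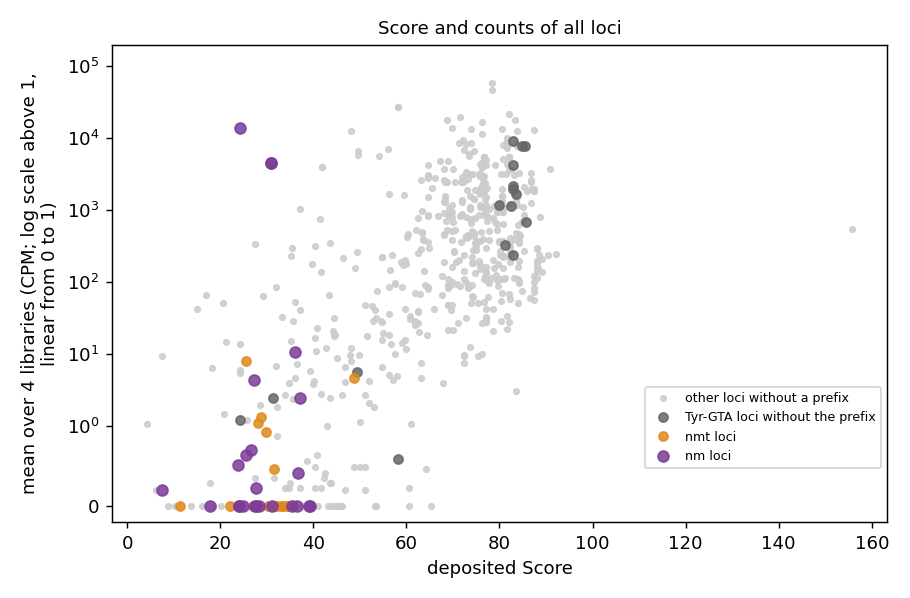
Deposited Score (horizontal axis) and mean CPM over the 4 libraries (vertical axis, log scale above 1 and linear below) of all 631 loci, by prefix. The purple points of 3 nm loci, at Scores of 24.18 and 30.98, stand above the other loci of such Scores. The 2 lower ones overlap at a Score of 30.98, and the other nm loci lie near or at 0.

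Counts were concentrated in 3 loci. They held 100304 of the 100389 nm counts of the 4 libraries, and the other 21 loci held 85. The first is nm-tRNA-Tyr-GTA-chr14-8 (chr14:32484812-32484877, plus strand, hg38), in an intron of AKAP6, a gene for a protein kinase A anchoring protein, on the same strand as that gene. It lies 11 bases from the pseudogene MTCO1P2. The second is nm-tRNA-Tyr-GTA-chr1-142 (chr1:630996-631061, minus strand), 12 bases from MTCO1P12 and 312 bases from MTND2P28, within an intron of AL669831.3. The third is nm-tRNA-Tyr-GTA-chr21-2 (chr21:10014944-10015009, minus strand), within an intron of CR382285.1. GENCODE types both AL669831.3 and CR382285.1 as transcribed processed pseudogenes, and both run on the strand of the tRNA locus inside them. All 3 loci are 66 bases wide, so their counts may be compared without a length correction.

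nm-tRNA-Tyr-GTA-chr14-8 had 27721 and 2131 counts in knockdown libraries 4 and 3, against 28766 and 2007 in control libraries 4 and 3. nm-tRNA-Tyr-GTA-chr1-142 had 9118 and 660 counts in knockdown libraries 4 and 3, against 9421 and 653 in control libraries 4 and 3. nm-tRNA-Tyr-GTA-chr21-2 had 8983 and 724 counts in knockdown libraries 4 and 3, against 9465 and 655 in control libraries 4 and 3. At each of these loci both libraries numbered 4 were high and both numbered 3 were low, and the counts of the 2 lines overlapped.

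The loci kept a nearly fixed proportion to each other. nm-tRNA-Tyr-GTA-chr14-8 took 60.5% and 60.6% of all nm counts in knockdown libraries 4 and 3, and 60.3% and 60.4% in control libraries 4 and 3. The ratio of nm-tRNA-Tyr-GTA-chr14-8 to nm-tRNA-Tyr-GTA-chr1-142 was 3.04 (95% Wilson interval 2.97 to 3.11) and 3.23 (2.96 to 3.52) in knockdown libraries 4 and 3, and 3.05 (2.98 to 3.13) and 3.07 (2.81 to 3.36) in control libraries 4 and 3. nm-tRNA-Tyr-GTA-chr1-142 and nm-tRNA-Tyr-GTA-chr21-2 also share the Score of 30.98. Their ratio was 1.02 (0.986 to 1.05) and 0.912 (0.820 to 1.01) in knockdown libraries 4 and 3, and 0.995 (0.967 to 1.02) and 0.997 (0.895 to 1.11) in control libraries 4 and 3. Each of these 4 intervals includes a ratio of 1. All intervals and floors here reflect counting error alone, because without molecular identifiers several reads can stem from 1 molecule.

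How reads that match several sequences were divided is not stated in the labels. How alike these loci and MT-TY are in sequence was not examined. The split of counts among these loci is therefore uncertain, and its part in the fixed proportions was not tested. Whether the reads counted at these loci stem from them or from MT-TY was not tested either. Counts for the mitochondrial tRNA genes themselves were not analysed here. The table also does not separate whole tRNAs from precursors and fragments.

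By the distance between log2 CPM values centred over the 4 libraries, the 3 loci closest to nm-tRNA-Tyr-GTA-chr14-8 among the other 488 with enough counts to test were nm-tRNA-Tyr-GTA-chr21-2 at 0.053, nm-tRNA-Tyr-GTA-chr1-142 at 0.068 and tRNA-Ala-CGC-3-1 at 0.158. With 4 libraries that differ mainly by number, this likeness is a description.

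**Figure D3:**
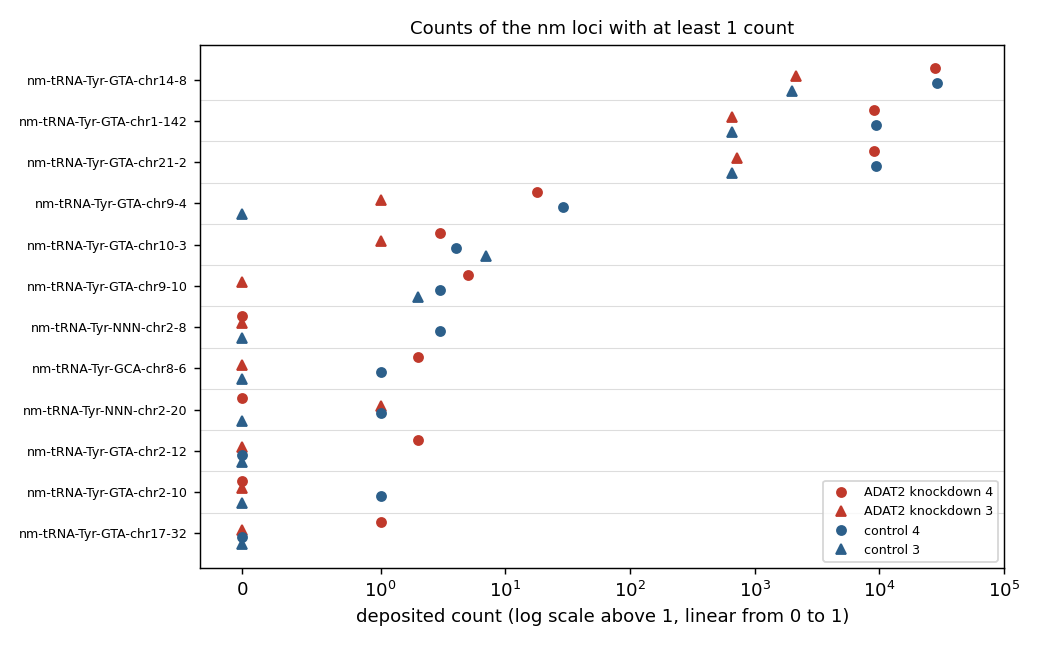
Deposited counts (horizontal axis, log scale above 1 and linear from 0 to 1) of the 12 nm loci with at least 1 count, with 1 point per library; red marks ADAT2 knockdown and blue control, circles libraries numbered 4 and triangles those numbered 3. At the top 3 loci the circles stand at 8983 to 28766 counts and the triangles at 653 to 2131, while red and blue points lie close together.

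Below these, nm-tRNA-Tyr-GTA-chr9-4 (chr9:92539198-92539263, plus strand), in an intron of the centromere protein gene CENPP, had 18 and 1 counts in knockdown libraries 4 and 3, against 29 and 0 in control libraries 4 and 3. It too was higher in the libraries numbered 4. The fifth locus, nm-tRNA-Tyr-GTA-chr10-3 (chr10:69592941-69593006, plus strand), between genes, had 3 and 1 counts in knockdown libraries 4 and 3, against 4 and 7 in control libraries 4 and 3. This was the only locus beyond the top 3 with a count in every library, and its highest count was in a library numbered 3. The sixth, nm-tRNA-Tyr-GTA-chr9-10 (chr9:5096587-5096652, minus strand), in an intron of the kinase gene JAK2 on the opposite strand, had 5 and 0 counts in knockdown libraries 4 and 3, against 3 and 2 in control libraries 4 and 3.

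The other 6 loci with counts had 1 to 3 counts in all 4 libraries together. They were nm-tRNA-Tyr-NNN-chr2-8, nm-tRNA-Tyr-GCA-chr8-6, nm-tRNA-Tyr-NNN-chr2-20, nm-tRNA-Tyr-GTA-chr2-12, nm-tRNA-Tyr-GTA-chr2-10 and nm-tRNA-Tyr-GTA-chr17-32. Differences at such counts were not detectable at this depth.

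The 12 loci without a count in any library made up 50% of the nm loci, against 64.7% of the nmt loci and 5.76% of the loci without a prefix. Among them were all 5 nm loci with A at the first anticodon position, the base that ADAT edits in its cytosolic target tRNAs. They are nm-tRNA-Tyr-ATA-chr11-8, nm-tRNA-Tyr-ATA-chr1-64, nm-tRNA-Tyr-ATA-chr1-10, nm-tRNA-Tyr-ATA-chr9-2 and nm-tRNA-SerTGA-AGA-chr11-7. Every nm count in the table was thus assigned to a locus whose anticodon does not start with A or is undetermined. The other 7 loci without counts are the Tyr-GTA loci nm-tRNA-Tyr-GTA-chr7-6, nm-tRNA-Tyr-GTA-chr17-33, nm-tRNA-Tyr-GTA-chr7-1, nm-tRNA-Tyr-GTA-chr2-23, nm-tRNA-Tyr-GTA-chr4-1, nm-tRNA-Tyr-GTA-chr8-7 and nm-tRNA-Tyr-GTA-chr7-2.

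The comparison of the 2 lines asked whether these loci differed with the ADAT2 edit. Together the nm loci took 3.79% (95% Wilson interval 3.75 to 3.82) and 0.400% (0.387 to 0.414) of all counts in knockdown libraries 4 and 3, against 4.46% (4.42 to 4.50) and 0.476% (0.460 to 0.493) in control libraries 4 and 3. Within each number the knockdown library lay below its control, with a difference of -0.67 percentage points in number 4 and -0.08 in number 3. Over all libraries the share was 2.09 ± 2.39% in knockdown and 2.47 ± 2.82% in control cells (mean ± SD, n = 2 each). This difference of -0.37 points was smaller than the spread within either line, and the two-sided exact permutation p was 0.667, where 0.333 is the smallest p that 2 against 2 libraries allow. The difference was 1.62 points without control library 4 and 1.32 points without knockdown library 3. Either removal leaves number 4, with its higher nm share, over-represented among the knockdown libraries, so the turn in sign follows from the removal itself.

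Enough counts for a test across genes were found at 4 of the 24 loci, and nm-tRNA-Tyr-GTA-chr9-4 entered only through the libraries numbered 4. With edgeR's quasi-likelihood test of the 2 lines, 0 of the 4 passed an adjusted p of 0.05, where 0% of all 489 tested loci passed. At an unadjusted p under 0.05 there were 0 of the 4 and 1 of the 489, and DESeq2 called 0 at an adjusted p under 0.05. The log2 fold change of knockdown over control was -0.45 ± 1.32 (SE, n = 2 per line) for nm-tRNA-Tyr-GTA-chr14-8, at 12655 ± 14468 CPM in knockdown and 14880 ± 16978 CPM in control cells (SD). It was -0.46 ± 1.34 for nm-tRNA-Tyr-GTA-chr1-142, -0.46 ± 1.32 for nm-tRNA-Tyr-GTA-chr21-2 and -0.94 ± 1.85 for nm-tRNA-Tyr-GTA-chr9-4, with an adjusted p of 0.998 for each of the 4 in edgeR. In this fit, which has no term for the library number, the SEs exceeded the changes. The median over the 4 was -0.46, beside -0.03 over the 489.

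Within a number, after scaling by the trimmed mean of M values (TMM), nm-tRNA-Tyr-GTA-chr14-8 had a knockdown over control log2 ratio of -0.49 in number 4 and -0.17 in number 3. The ratio was -0.49 and -0.24 for nm-tRNA-Tyr-GTA-chr1-142 and -0.52 and -0.11 for nm-tRNA-Tyr-GTA-chr21-2, in numbers 4 and 3. These ratios come from 1 library per line and have no error of their own. With library totals in place of TMM they were -0.23 to -0.25 in number 4 and -0.19 to -0.32 in number 3 for the 3 loci. Scaled by TMM, nm-tRNA-Tyr-GTA-chr9-4 had opposite signs, with -1.11 in number 4 and 1.33 in number 3, the second from 1 count against 0. Without control library 4 the log2 fold change was 1.83 for each of the 3 abundant loci (edgeR adjusted p = 0.999). That fit sets knockdown libraries 4 and 3 against control library 3 alone, takes its spread from the knockdown libraries and assumes that the lone control varies like them, and its sign follows from the unequal numbers.

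The nm loci differed between library numbers. What the number marks besides a replicate is not given in the labels. In libraries numbered 4 the nm share of counts was 9.46-fold that of number 3 in knockdown and 9.36-fold in control cells. With the line as a second term, edgeR called the 3 abundant nm loci higher in number 4, where 77.7% of the 489 tested loci were called, 40.3% higher and 37.4% lower. nm-tRNA-Tyr-GTA-chr14-8 had a log2 fold change of number 4 over number 3 of 2.80 ± 0.33 (SE, from 2 libraries in each number, edgeR adjusted p = 1.33e-15). It was 2.85 ± 0.26 for nm-tRNA-Tyr-GTA-chr1-142 (edgeR adjusted p = 2.01e-23) and 2.77 ± 0.26 for nm-tRNA-Tyr-GTA-chr21-2 (edgeR adjusted p = 1.80e-22). Among the 489 changes, nm-tRNA-Tyr-GTA-chr1-142 ranked 28, nm-tRNA-Tyr-GTA-chr14-8 ranked 30 and nm-tRNA-Tyr-GTA-chr21-2 ranked 32. That fit has 1 residual degree of freedom and takes its spread from all loci.

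For nm-tRNA-Tyr-GTA-chr9-4, 47 counts in the libraries numbered 4 stood against 1 in those numbered 3. This locus passed the count filter only through the libraries numbered 4, so its direction was favoured by the filter and its fold change is given in the plot as a description, with no test. With library totals in place of TMM the median log2 fold change of number 4 over number 3 over all tested loci was 0.44, against 0.01 with TMM, and the 3 abundant nm loci stood at 3.20 to 3.28.

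**Figure D4:**
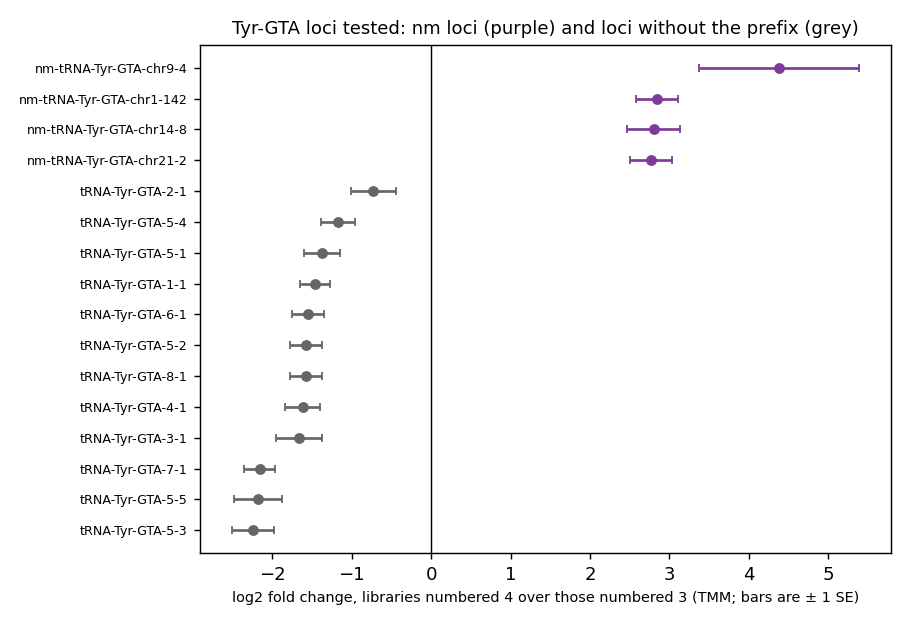
Log2 fold change of libraries numbered 4 over those numbered 3 (points, with bars of 1 SE) for the 4 nm loci and the 12 Tyr-GTA loci without the prefix that had enough counts, scaled by TMM. The purple points of the 3 abundant nm loci lie between 2.77 and 2.85 and the grey points between -2.25 and -0.73. The purple point at 4.38 is nm-tRNA-Tyr-GTA-chr9-4, which passed the count filter only through the libraries numbered 4 and is shown as a description.

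The Tyr-GTA loci without the prefix, which encode cytosolic tyrosine tRNA, were lower in the libraries numbered 4. All 12 that could be tested, of 16, were called lower by edgeR in that fit, where 37.4% of the 489 tested loci were called lower. Their median was -1.58 (range -2.25 to -0.73), beside 0.01 over the 489. The one with the most counts, tRNA-Tyr-GTA-5-5 on chromosome 14, had 5743 and 14203 counts in knockdown libraries 4 and 3, against 3762 and 8158 in control libraries 4 and 3, and its log2 fold change of number 4 over number 3 was -2.18 ± 0.31 (SE, edgeR adjusted p = 1.45e-11). Between the lines, edgeR called 0 of the 12, with a median log2 fold change of 0.32. A wider list, which includes these 12, holds the loci without the prefix that share amino acid and anticodon columns with any nm locus. Of its 55 tested loci, 30 were called higher in number 4 and 16 lower, with a median log2 fold change of 0.80. All 12 Tyr-GTA loci are among the 16 called lower. The list also takes in columns such as Cys-GCA and Ser-AGA, whose nm loci had 3 and 0 counts, so it describes no single tRNA family.

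The make-up of the Tyr-GTA counts therefore differed widely between library numbers. The nm loci took 59.3% and 6.47% of all Tyr-GTA counts in knockdown libraries 4 and 3, against 67.3% and 9.14% in control libraries 4 and 3. As shares of all counts, the Tyr-GTA loci without the prefix took 2.60% and 5.79% in knockdown libraries 4 and 3, against 2.17% and 4.73% in control libraries 4 and 3. These are shares of counts without a correction for length. Any sum over Tyr-GTA in the table thus depends on whether the nm loci are counted in it.

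**Figure D5:**
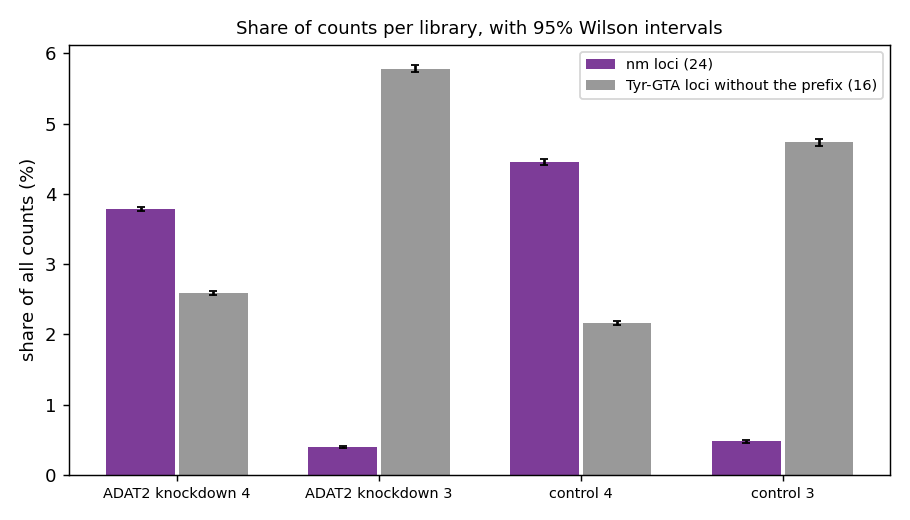
Share of all counts (vertical axis, percent, bars from 0 with 95% Wilson intervals) taken by the 24 nm loci and by the 16 Tyr-GTA loci without the prefix in each library. In both lines the nm share is 3.79 to 4.46% in number 4 and 0.400 to 0.476% in number 3, and the other Tyr-GTA loci show the opposite order.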

How the data were processed

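The table deposited by the authors gives raw counts for each tRNA locus, with 1 column for each of the 4 libraries. The labels list 8 samples, 2 lanes per library, and 0 count columns lacked a group. The submitters' processing notes name Bowtie2 2.2.2 and hg38, and the labels name summarizeOverlaps. The handling of strand, mismatches and reads with several matches is not stated there. The Score is as the authors deposited it. Other columns deposited by the authors, namely width and intron flag, are used as they stand.

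CPM are counts divided by the library total and scaled to a common total. edgeR 4.0.16 (R 4.3.3) was fitted to all loci passing filterByExpr (minimum count 10), with TMM factors and Benjamini-Hochberg adjustment at 0.05. For edgeR, SE = |log2 fold change| / √F, and 0.5 was added to counts for single-library ratios. The alternatives were DESeq2 1.42.0, other scalings, no filter, the number as a term, and leaving out each library. Wilson intervals used scipy 1.17.1, and the exact permutation went through every split of the libraries between the lines. Neighbours were taken from GENCODE 29 on GRCh38, the build of the counts. The fits with and without the number as a term were run on simulated counts with 200 changed loci. A set number of correct signs and a small median error were required only of the fit with that term, not of the main comparison of the lines. The loci named are those with enough counts, the 6 with the highest mean CPM, those with the extreme Scores, and the others by name only, so that all 24 are accounted for. The members, lists and tests were chosen with earlier results of these data known.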

Additional observations from a re-analysis of the deposited data

How the results depend on the processing

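The count of nm loci called between the lines was 0 under each of the 9 alternatives, and the 3 abundant loci were called higher in number 4 under each of the 4 alternatives run. nm-tRNA-Tyr-GTA-chr9-4 is not counted with the 3 abundant loci, since it passed the filter only through the libraries numbered 4. Leaving out a library in the second comparison leaves no residual degrees of freedom and was not run. Over the fits that each left out 1 library, the log2 fold change of knockdown over control ran from -2.30 to 1.83 for nm-tRNA-Tyr-GTA-chr14-8, from -2.38 to 1.83 for nm-tRNA-Tyr-GTA-chr1-142, from -2.26 to 1.83 for nm-tRNA-Tyr-GTA-chr21-2 and from -3.17 to 5.81 for nm-tRNA-Tyr-GTA-chr9-4. The share difference ran from -2.36 to 1.62 percentage points. Each removal leaves unequal library numbers in the 2 lines, which by itself moves these values. Other scalings, no filter and DESeq2 kept the direction of the 4 log2 fold changes and were not run for the share; with library totals the median knockdown over control log2 fold change of all loci was 0.11, against -0.03 with TMM. With the library number as a replicate block, the log2 fold change was -0.37 ± 0.25 for nm-tRNA-Tyr-GTA-chr1-142 (SE, edgeR adjusted p = 0.440), -0.33 ± 0.31 for nm-tRNA-Tyr-GTA-chr14-8 (0.624), -0.32 ± 0.25 for nm-tRNA-Tyr-GTA-chr21-2 (0.530) and -0.998 ± 0.607 for nm-tRNA-Tyr-GTA-chr9-4 (0.377). Each SE was smaller than its change, and the mean share difference was -0.37 points. That block called 39 of 489 loci, against 0 without it, and none of them was an nm locus. Same-numbered libraries deviated from their line's mean together, with a correlation of 0.935 across the 489 loci, but the labels do not say that a number marks a shared batch. The 20 nm loci without a test had 15 counts or fewer each, too few for a comparison at this depth.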

Other observations

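The 17 loci with the prefix nmt-, which by name carry glutamine, leucine, proline, serine and valine tRNAs, had few counts. Together they held 26 and 6 counts in knockdown libraries 4 and 3, against 37 and 3 in control libraries 4 and 3. The 21 nm loci other than the 3 abundant ones held 85 counts in all 4 libraries. None of the nmt loci had enough counts for a test. The one with the most, nmt-tRNA-Gln-TTG-9-1, had 12 and 2 counts in knockdown libraries 4 and 3, against 22 and 0 in control libraries 4 and 3, so that it too was higher in the libraries numbered 4.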
